A study of Mus musculus with 24 samples.

Results

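Interferon-stimulated genes are described here as a set of 34 genes, taken by symbol from the 55487 genes measured in 24 bulk RNA-seq libraries of mouse tissue-resident macrophages. Every one of the 34 was found once in the table. The resident populations were sorted from digested tissue: alveolar macrophages (lung), Kupffer cells (liver), microglia (brain) and splenic macrophages. Each came from WT mice and from mice of the genotype labelled Z165KO (KO from here on), with 3 libraries in each of the 8 groups. The labels give no strain, age, sort gate or description of the Z165KO allele. Nothing in them ties a replicate to its own animal, and the p-values therefore measure only the spread between libraries of a group, which may be technical. The title of the series names the transcription factors Zeb2 and cMaf, and the design sets KO against WT within each cell type.

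Type I interferons are secreted on sensing of foreign or misplaced nucleic acid and bind the receptor pair Ifnar1 and Ifnar2. The receptor-bound kinases Jak1 and Tyk2 phosphorylate Stat2, which joins Irf9 in the complex ISGF3, and ISGF3 binds an interferon-stimulated response element (ISRE) near the start of its target genes. The targets include proteins that block virus entry, translation or replication, sensors that raise the alarm, Irf7, which drives further interferon production, and Usp18, which damps the receptor. Tissue macrophages keep some of these genes on without infection, a state often called tonic interferon signalling.

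Total counts per library lay between 50449347 and 65981787, and levels are given as CPM (counts scaled to the library's total), so that 1 CPM rested on more than 50 reads. The labelled cell types carried their markers: the summed level of 12 Kupffer cell identity genes was 23486 to 26887 CPM in WT Kupffer libraries and 273 to 8667 CPM in the other WT libraries. The upper end of that second range was splenic. For the other types the own identity lists summed to 24804 to 29768 CPM in alveolar macrophages, 39849 to 46932 CPM in microglia and 23588 to 27892 CPM in splenic macrophages. The splenic list summed to 6337 to 7817 CPM in WT Kupffer libraries. Slc40a1 is on both the Kupffer and the splenic list, and averaged 4242 CPM in WT Kupffer cells and 5554 CPM in WT splenic macrophages. Zeb2 averaged 136 ± 8.70 CPM in KO against 256 ± 57.7 CPM in WT alveolar macrophages (SD, n = 3), with an adjusted p of 0.116 in edgeR's quasi-likelihood test. In Kupffer cells it was at 277, 321 and 235 CPM in WT and 279, 237 and 282 CPM in KO, and it overlapped between genotypes in microglia and splenic macrophages too.

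Some promoters of the set hold the letters that ISGF3 is known to bind, and windows are printed for the 6 such members with the largest fold changes between genotypes in Kupffer cells. RefSeq promoter sequences on GRCm38.p6 were matched to 25 of the 34 genes. The ISRE core GAAANNGAAA, searched on both strands in the 250 bases before the start, was present for 10 of these 25 genes (40%) and for 936 of all 27025 genes in the same table (3.46%). The core of a STAT dimer site, TTCNNNGAA, which reads the same on both strands, was present for 5 of the 25 (20%) and for 2197 of all 27025 (8.13%). A match is a description of the letters and not a measured binding site. Windows of 60 bases follow, 5′ to 3′ on the strand of the gene, with every ISRE core in capitals. On the opposite strand the core appears as its reverse complement.
Isg15 (chr4:156200850-156200909, minus strand): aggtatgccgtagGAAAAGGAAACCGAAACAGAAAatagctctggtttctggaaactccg
Rsad2 (chr12:26456538-26456597, minus strand): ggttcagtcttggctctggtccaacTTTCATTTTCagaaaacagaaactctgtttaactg
Ifit3b (chr19:34607778-34607837, plus strand): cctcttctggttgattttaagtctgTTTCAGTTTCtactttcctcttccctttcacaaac
Oas3 (chr5:120777700-120777759, minus strand): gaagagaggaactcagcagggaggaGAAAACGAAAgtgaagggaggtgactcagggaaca
Ifit1 (chr19:34640779-34640838, plus strand): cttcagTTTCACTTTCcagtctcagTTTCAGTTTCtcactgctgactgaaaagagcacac
Bst2 (chr8:71537562-71537621, minus strand): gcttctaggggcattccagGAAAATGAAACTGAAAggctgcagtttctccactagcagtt
The Isg15 window held 3 overlapping cores, and the Bst2 window 2 overlapping cores. The Ifit1 window held 2 separate cores on the opposite strand. Rsad2, Ifit3b and Oas3 had 1 core each in the window shown, 120, 154 and 75 bases before the RefSeq start, counted to the far end of the core.

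Several members are neighbours in the mm10 genome. The IFIT genes Ifit2, Ifit3, Ifit3b and Ifit1 lie between 34550694 and 34650009 on chromosome 19. Oas2, Oas3 and Oas1a lie between 120730333 and 120907521 on chromosome 5, and Oasl2 and Oasl1 lie apart from them at 114896936 to 114937915. Rsad2 and Cmpk2 adjoin each other on chromosome 12, at 26442746 to 26479837, and Mx1 and Mx2 lie at 97447035 to 97560900 on chromosome 16. Some members have close copies, so that the split of reads between the copies is uncertain. Ifit3 shares 51.2% of the 50-base words of its longest transcript with Ifit3b, and Oas1a shares 57.6% with Oas1g. Herc6 shares 23.8% with the overlapping gene model Gm45193 and Rtp4 shares 13.65% with Gm45338. Ifit3b shares 44.5% with Ifit3, and the remaining members shared at most 7.135% with any other gene. The sources used here do not say whether counting used strand, so reads of Oasl1, Irf7, Usp18, Ifi35, Dhx58 and Eif2ak2 cannot be told from those of genes on the opposite strand that overlap their exons. Exons of Irf9 overlap those of Rnf31, and exons of Parp14 those of Gm49730, on the same strand, where strand cannot separate the reads. In their longest transcripts 0.3403% of the words of Irf9 and 0.8415% of those of Parp14 were shared with any other gene.

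In WT libraries the interferon-stimulated genes were highest in Kupffer cells, intermediate in splenic macrophages and low in alveolar macrophages and microglia. The summed level of the 34 genes was 4617, 4746 and 5267 CPM in the 3 WT Kupffer libraries, and 1669 to 2651 CPM in the WT splenic libraries. It was 574 to 596 CPM in WT alveolar macrophages and 485 to 513 CPM in WT microglia. The Kupffer libraries stood above every library of the other types.

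**Figure D1:**
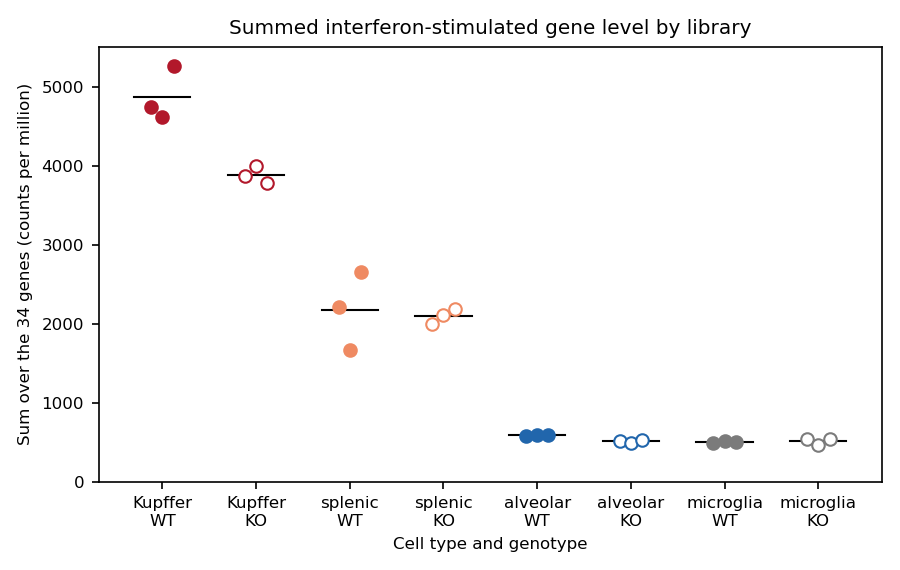
Summed level of the 34 interferon-stimulated genes in each of the 24 libraries, in CPM, by cell type and genotype (filled points WT, open points KO, line the mean of 3). WT Kupffer libraries sit at 4617 to 5267 and KO Kupffer libraries at 3788 to 3997, while alveolar and microglial libraries of both genotypes stay at or below 596.

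All 34 genes differed between the 4 WT cell types in edgeR's quasi-likelihood F test at a Benjamini-Hochberg adjusted p under 0.05 (called, from here on), where 52.3% of the 21679 genes tested did. Against the mean of the other 3 types, 33 of 34 were higher in Kupffer cells (15.2% of all genes) and 0 were lower (7.58%), with a median log2 difference of 2.58. In splenic macrophages 27 were higher (14.5%) and 0 lower (9.69%), with a median of 1.24. Alveolar macrophages had 1 member higher (17.3%) and 27 lower (14.7%), with a median of -1.46, and microglia had 0 higher (21.7%) and 30 lower (20.3%), with a median of -1.85. With library totals in place of TMM scaling the median over all genes in the Kupffer comparison moved from 0.057 to 0.22, while the members' median was 2.74 and the count higher was again 33. The member outside the Kupffer count was Isg20, an exonuclease, whose log2 difference in Kupffer cells was 0.36 ± 0.29 (SE, adjusted p = 0.439).

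Most members, 25 of 34, were called higher in both Kupffer cells and splenic macrophages. In 7 cases the call was made in Kupffer cells and in no other type: Bst2, Ddx58, Ifi35, Mx2, Oasl1, Oasl2 and Zbp1. Isg20 was called higher in splenic macrophages alone, at 72.4, 41.4 and 114 TPM (the deposited level scaled by transcript length and library) in the 3 WT libraries against 28.6, 22.4 and 30.6 TPM in Kupffer cells. Samd9l, a restriction factor of poxviruses, was called higher in Kupffer, splenic and alveolar libraries, and its microglial level was 2.90, 1.32 and 1.72 TPM.

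The order of the upper pair was tested directly. Between WT Kupffer cells and WT splenic macrophages, 13 of 34 members were higher in Kupffer cells (8.88% of all genes), 1 was lower (7.53%) and 20 were not called, with a median log2 difference of 0.78. The widest gap was in Oasl1, a 2′-5′ oligoadenylate synthetase-like protein without the usual enzyme activity. It stood at 202, 144 and 238 TPM in the WT Kupffer libraries and at 7.42, 5.93 and 11.9 TPM in the splenic ones, a log2 difference of 4.34 ± 0.47 (SE, adjusted p = 0.000122). Between the lower pair, 13 members were higher in alveolar macrophages than in microglia (20.4%), 10 were lower (19.4%) and 11 were not called. Without replicate 1 or without replicate 3 the count lower in alveolar macrophages was 6, and the member lower in Kupffer than in splenic cells, Isg20 (log2 difference -1.68 ± 0.37, SE), was no longer called.

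Per length, so that genes can be compared with each other, 5 members led in WT Kupffer cells. Ifi27l2a, a small interferon-induced mitochondrial protein, stood at 1173, 1306 and 1411 TPM. Bst2 (tetherin), which holds budding virus at the cell surface, stood at 1046, 877 and 1073 TPM, and Irf7 at 758, 769 and 873 TPM. Ifit3, which stabilises the RNA-binding IFIT complex, followed at 306, 305 and 361 TPM. Isg15, the ubiquitin-like modifier that gives the family its name, stood at 206, 196 and 451 TPM, where replicate 3 was more than 2 times either of the others. Oas1a, at 280.2 ± 6.44 TPM (SD, n = 3), lay within the spread of Isg15.

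The leading members differed by cell type. In splenic macrophages Ifi27l2a (694 ± 118 TPM, SD, n = 3), Bst2 (381 ± 63.9), Isg15 (324 ± 80.1), Irf7 (255 ± 57.2) and Rsad2 (126 ± 45.1) were the top 5. Alveolar macrophages were led by Bst2 (118 ± 11.4 TPM), Ifi27l2a (69.8 ± 25.2), Ifi35 (59.2 ± 3.95), Oas1a (43.3 ± 2.92) and Stat2 (33.7 ± 4.30). Microglia were led by Bst2 (225 ± 66.4 TPM), Ifi35 (62.8 ± 11.8), Irf9 (47.1 ± 2.57), Trim30a (32.2 ± 5.36) and Stat2 (27.9 ± 7.86). In microglia the ISGF3 subunits Irf9 and Stat2 thus ranked 3 and 5, and the antiviral effectors Bst2 and Trim30a ranked 1 and 4. Stat2 was still called lower in microglia than in the mean of the other types (log2 difference -1.47 ± 0.19, SE). Other effectors, Rsad2, Oas3 and Ifi44 among them, were near 0 there: Oas3 was at 0, 0.0847 and 0 TPM in the WT libraries. Irf7 separated the types widely, at 799.8 ± 63.5 TPM in Kupffer cells, 14.1 ± 3.62 TPM in alveolar macrophages and 7.02 ± 1.72 TPM in microglia.

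**Figure D2:**
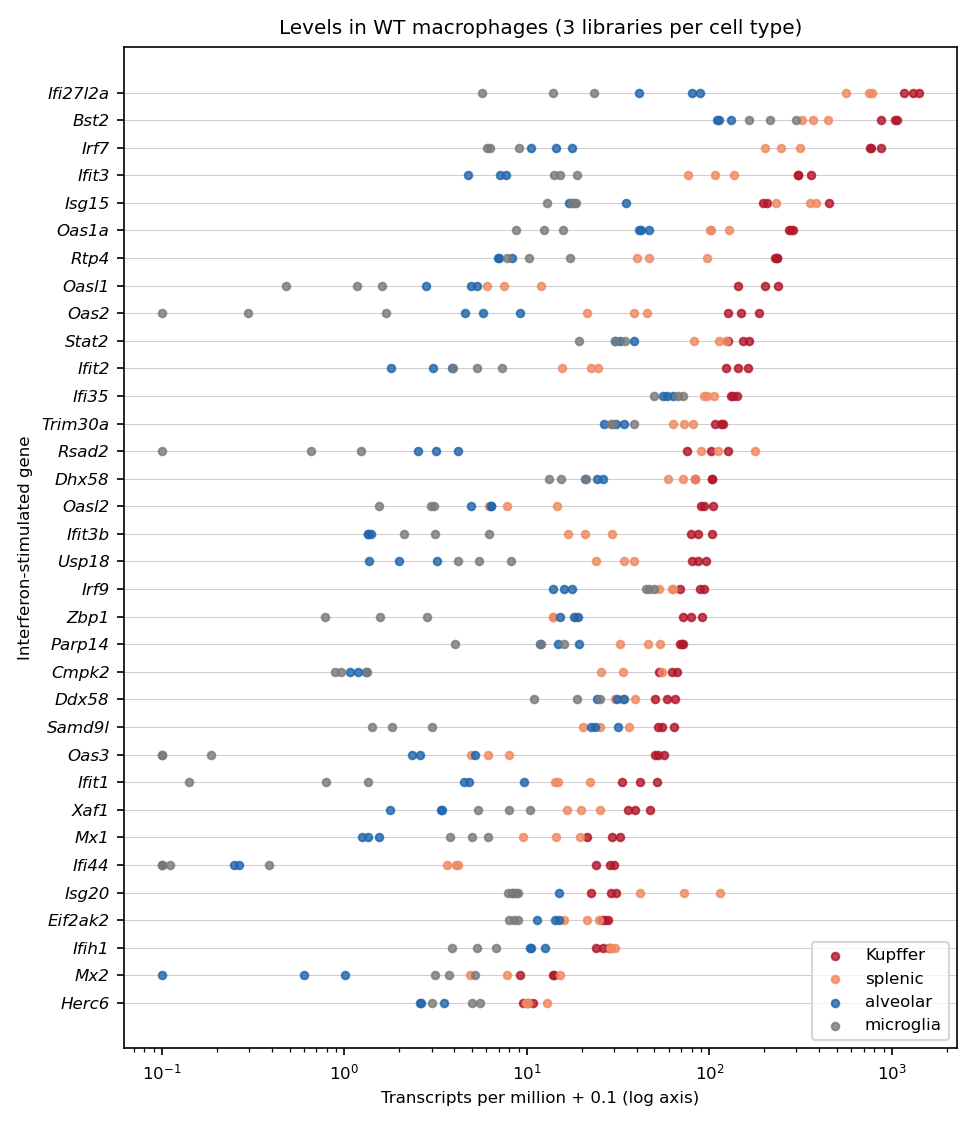
Level of each interferon-stimulated gene in the 12 WT libraries, in TPM with 0.1 added, on a log axis (1 point per library, coloured by cell type). Genes are ordered by their Kupffer mean, and the Kupffer points lie furthest to the right except for a few genes such as Isg20, Isg15 and Rsad2, where splenic points reach as far or further.

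The question of the design for this set is whether these levels differ between KO and WT. In Kupffer cells 0 of the 34 members passed an adjusted p under 0.05 in edgeR's quasi-likelihood test, and 12 of all 19085 genes tested did (0.0629%). At an unadjusted p under 0.05, 14 of 34 members were lower in KO (4.1% of all genes) and 0 were higher (2.84%). The 3 KO values were entirely below the 3 WT values in 15 of 34 members (7.04% of all genes) and entirely above in 0 (5.87%). The log2 fold change of KO over WT was below 0 for 32 of 34 members, with a median of -0.32 and a range of -1.24 to 0.11, against a median of -0.0029 over all genes tested. DESeq2 called 2 members lower, Oasl1 (adjusted p = 9.59e-06) and Rsad2 (adjusted p = 0.0453), where it called 475 of all 22138 genes. Without the filter on low counts edgeR called Oasl1 (adjusted p = 0.0467), where it called 76 of all 33642 genes. Over all alternatives run with edgeR and DESeq2 the adjusted p reached up to 0.786 for Oasl1 and up to 0.965 for Rsad2.

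The summed level shows the same values by library. It was 4617 to 5267 CPM in WT and 3788 to 3997 CPM in KO Kupffer cells, and the groups did not overlap. Of the 34 members, 4, 4 and 3 were above their WT mean in KO replicates 1, 2 and 3. Among the WT libraries, replicate 3 had 26 of 34 members above the WT mean and replicate 2 had 10. Without WT replicate 3 the median log2 fold change was -0.23, and over all 6 ways of leaving out 1 library it ranged from -0.34 to -0.23.

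Among the transcription factors, the genotypes did not overlap for Irf7 and overlapped for both ISGF3 subunits. Irf7 stood at 891, 926 and 1079 CPM in the WT libraries and 702, 719 and 754 CPM in the KO libraries. The KO libraries were all below the WT libraries, with a log2 fold change of -0.39 ± 0.13 (SE, adjusted p = 0.581). Stat2 was at 303, 238 and 295 CPM in the WT libraries and 263, 269 and 249.97 CPM in the KO libraries, a log2 fold change of -0.077 ± 0.13 (SE), and the groups overlapped. Irf9, the DNA-binding subunit of ISGF3, was at 157, 153 and 121 CPM in the WT libraries and 135, 145 and 136 CPM in the KO libraries, a log2 fold change of -0.037 ± 0.13 (SE). Its groups overlapped too, and the 95% interval of its log2 fold change ran from -0.35 to 0.28.

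The oligoadenylate synthases make the 2′-5′ oligomers that activate RNase L, and the family includes the gene with the largest difference of the set. Oasl1 was at 164, 119.5 and 203 CPM in the WT libraries and 69.2, 77.6 and 58.1 CPM in the KO libraries. Every KO library was below every WT library, with a log2 fold change of -1.24 ± 0.20 (SE). In edgeR its adjusted p over all genes was 0.114. Oasl2 was at 179, 189 and 218 CPM in the WT libraries and 154, 161 and 143 CPM in the KO libraries, again without overlap, a log2 fold change of -0.34 ± 0.12 (SE, adjusted p = 0.625). The log2 fold changes were -0.37 ± 0.13 for Oas3, -0.22 ± 0.22 for Oas2, -0.19 ± 0.12 for Oas1a (SE). Outside that family, the exonuclease Isg20 had -0.74 ± 0.32 (log2 fold change, SE). Oas3 and Oas1a did not overlap between genotypes, whereas Oas2 and Isg20 did.

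**Figure D3:**
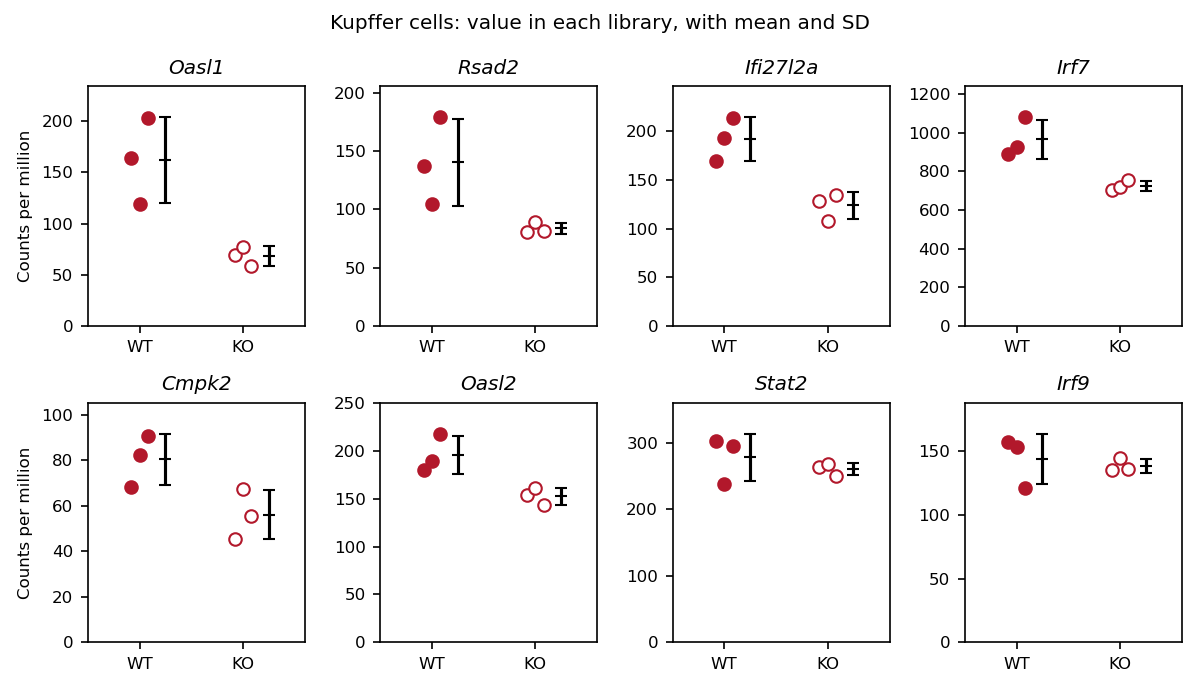
CPM in each Kupffer library (filled points WT, open points KO, bars mean and SD of 3) for the 6 members with the smallest unadjusted p and for Stat2 and Irf9. In the first 6 panels the KO points are all lower than the WT points, as for Oasl1 at 58.1 to 77.6 against 119.5 to 203, and in the Stat2 and Irf9 panels the groups overlap.

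Among other antiviral effectors the genotypes did not overlap for Rsad2, Cmpk2, Bst2 and Trim30a. Rsad2 (viperin), a radical SAM enzyme that makes a chain-terminating nucleotide, was at 137, 105 and 179 CPM in the WT libraries and 80.8, 89.0 and 80.9 CPM in the KO libraries. The KO values were close together and below all WT values, with a log2 fold change of -0.73 ± 0.20 (SE, adjusted p = 0.406). Cmpk2, its neighbour on chromosome 12 and a mitochondrial nucleotide kinase, was at 68.3, 82.4 and 90.4 CPM in the WT libraries and 45.5, 67.2 and 55.7 CPM in the KO libraries. These too did not overlap, by about 1 CPM at the nearest pair, and the log2 fold change was -0.51 ± 0.18 (SE). Bst2 had a log2 fold change of -0.35 ± 0.14, Parp14 of -0.19 ± 0.17, Trim30a of -0.16 ± 0.10 and Samd9l of 0.11 ± 0.16 (SE).

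Among interferon-induced proteins of less settled function, Ifi27l2a had the largest fold change. It was at 169, 193 and 214 CPM in the WT libraries and 128, 108 and 134 CPM in the KO libraries, with no overlap and a log2 fold change of -0.61 ± 0.17 (SE, adjusted p = 0.416). The others gave -0.34 ± 0.13 for Ifi44, -0.20 ± 0.12 for Ifi35, -0.15 ± 0.16 for Xaf1 and -0.099 ± 0.11 for Rtp4 (log2 fold change, SE), and the last 2 were within 1 SE of 0. Ifi44 and Ifi35 did not overlap between genotypes either, whereas Xaf1 and Rtp4 overlapped.

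The ISG15 system consists of the modifier, its ligase and its protease. Isg15 itself was at 45.1, 44.0 and 104 CPM in the WT libraries and 37.0, 38.0 and 28.9 CPM in the KO libraries. Replicate 3 of the WT group was far above the other 5 libraries, and the log2 fold change of -0.88 ± 0.35 (SE) became -0.35 without it. Usp18, which removes Isg15 from proteins and inhibits Ifnar2, had -0.38 ± 0.14, and Herc6, the main mouse Isg15 ligase, had -0.092 ± 0.14 (log2 fold change, SE).

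In the IFIT and Mx families all 6 estimates were below 0, and 5 of the 6 members overlapped between genotypes. For the RNA-binding IFIT proteins the log2 fold changes were -0.36 ± 0.27 for Ifit1, -0.33 ± 0.15 for Ifit2, -0.28 ± 0.15 for Ifit3 and -0.39 ± 0.16 for Ifit3b (SE), of which Ifit3b alone did not overlap. The dynamin-like GTPases Mx1 and Mx2 had -0.30 ± 0.17 and -0.65 ± 0.26 (log2 fold change, SE), with overlapping groups.

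Of the 5 nucleic acid sensors and regulators among the members, Dhx58 alone did not overlap between genotypes. Dhx58, a regulator of the RNA helicase sensors, had -0.35 ± 0.15, and the sensors Ifih1 (MDA5) and Ddx58 (RIG-I) had -0.30 ± 0.15 and -0.13 ± 0.12 (log2 fold change, SE). Zbp1, a sensor of Z-form nucleic acid, had -0.016 ± 0.15, and Eif2ak2 (PKR), which stops translation on double-stranded RNA, had 0.056 ± 0.14. The sign turned for Irf9 without WT replicate 1 or 2, for Zbp1 without WT replicate 3 or KO replicate 2, for Xaf1 without WT replicate 3, for Eif2ak2 without KO replicate 3 and for Samd9l without KO replicate 2.

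Markers of other cell types moved with genotype in the same Kupffer libraries. The summed level of 14 B cell markers was 869 to 1365 CPM in WT and 136 to 170 CPM in KO Kupffer libraries, 6 of the 14 were called lower, and Pax5 and Ebf1 were at 0 in all KO libraries. The 12 plasmacytoid dendritic cell markers other than Bst2 summed to 204 to 265 CPM in WT and 98.7 to 159 CPM in KO. Of these, Ly6d (50.1 CPM in WT and 2.95 CPM in KO on average) and Spib (23.1 and 0.0921 CPM) are also expressed by B-lineage cells, and Tcf4 (138 and 113 CPM) overlapped between genotypes. Siglech (1.88 CPM in WT and 0.301 CPM in KO on average) and Smim5 (0.881 and 0.257 CPM) were low and did not overlap. Their log2 fold changes were -2.60 and -1.75. Runx2 and Cox6a2 had -0.64 and -0.023, with overlapping groups. Ccr9, Pacsin1 and Dntt had log2 fold changes of 0.16, 0.37 and 0.092, and 0 genes of that list were called. Klk1 was at 0 in all KO libraries and Ptprcap in all libraries of both genotypes. The 11 conventional dendritic cell markers summed to 2033 to 2054 CPM in WT and 1890 to 2172 CPM in KO. Of these 0 were called, and 3 were higher and 3 lower at an unadjusted p under 0.05 in edgeR. Xcr1 averaged 16.5 CPM in WT and 67.7 CPM in KO, without overlap. Cd209a averaged 37.8 and 0.585 CPM and Ccr7 174 and 64.4 CPM, also without overlap. The 14 liver endothelial markers summed to 7055 to 8857 CPM in WT and 2726 to 7334 CPM in KO, and the 19 dissociation stress genes summed to 16912 to 33482 CPM in WT and 15572 to 17174 CPM in KO. Both of these ranges overlapped, with 0 genes called. The part of these cells and of handling in the differences of the interferon-stimulated genes was not tested, and in bulk libraries fewer cells of a type and less RNA per cell cannot be told apart. The 12 Kupffer identity genes summed to 23486 to 26887 CPM in WT and 22055 to 31310 CPM in KO, and those ranges overlapped.

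In alveolar macrophages 0 of 33 members tested were called in edgeR (0.317% of all 17369 genes were). At an unadjusted p under 0.05 there were 2 lower (6.74% of all genes) and 0 higher (5.77%). The KO values were entirely below the WT values in 6 members (11.8%) and entirely above in 0 (7.61%), and the median log2 fold change was -0.19, against -0.015 over all genes. Ifit2, which in other settings promotes cell death and binds AU-rich RNA, was at 3.55, 4.83 and 2.16 CPM in the WT libraries and 0.688, 0.512 and 1.21 CPM in the KO libraries. That is a low level without overlap, with a log2 fold change of -2.12 ± 0.52 (SE, adjusted p = 0.162). DESeq2 called Ifit2 lower (adjusted p = 0.00377), where 1034 of all 20077 genes were called. The edgeR fit of all 24 libraries together called Ifit2 lower too (adjusted p = 0.0140), where 297 of all 24030 genes were called. That fit also called Mx2 lower (adjusted p = 0.0117), a gene that the filter on low counts removes from the alveolar fit. Over the alternatives run with edgeR and DESeq2, the adjusted p of Ifit2 reached up to 0.472.

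The next alveolar members by unadjusted p were Samd9l, Parp14 and Ddx58. Samd9l was at 52.2, 41.6 and 39.4 CPM in the WT libraries and 29.5, 15.5 and 29.6 CPM in the KO libraries, without overlap, and its log2 fold change was -0.81 ± 0.27 (SE, adjusted p = 0.287). Parp14, a mono-ADP-ribosyltransferase, had -0.65 ± 0.29 with overlapping groups, and Ddx58 had -0.33 ± 0.15 without overlap (log2 fold change, SE). The alveolar median rested on single libraries: without KO replicate 3 it was -0.076 and without WT replicate 2 it was -0.043. B cell markers moved here too, at 227 to 341 CPM in WT and 97.7 to 125 CPM in KO, and the 13 neutrophil markers summed to 244 to 482 CPM in WT and 611 to 833 CPM in KO, while the 19 dissociation stress genes summed to 11087 to 31832 CPM in WT and 9585 to 10981 CPM in KO. Lung epithelial markers summed to 360.5 to 595 CPM in WT and 675 to 761 CPM in KO, endothelial markers to 292 to 389 CPM and 453 to 582 CPM, and T and NK cell markers to 46.0 to 50.3 CPM and 54.6 to 73.9 CPM. The part of these cells and of handling in the alveolar values was not tested.

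In microglia 0 of 32 members tested were called in edgeR (0% of 17880 genes). At an unadjusted p under 0.05 there was 1 higher (2.3% of all genes) and 0 lower (2.14%). KO values were entirely above the WT values in 2 members (5.58%) and entirely below in 1 (5.45%), and the median log2 fold change was 0.10 against -0.0065 over all genes. Ifit2 was at 8.65, 5.26 and 6.23 CPM in the WT libraries and 7.99, 11.1 and 14.3 CPM in the KO libraries, a log2 fold change of 0.73 ± 0.31 (SE, unadjusted p = 0.0456 in edgeR), and the groups overlapped. Mx1, a GTPase that traps viral ribonucleoproteins, was at 6.93, 4.91 and 5.62 CPM in the WT libraries and 4.25, 4.02 and 2.72 CPM in the KO libraries, all KO values lower, with a log2 fold change of -0.67 ± 0.30 (SE). Ifit1 and Cmpk2 were the members with all KO values higher, from WT means of 0.534 and 1.27 CPM, at log2 fold changes of 1.999 ± 0.94 and 0.74 ± 0.39 (SE). The adjusted p of each of these 4 was 0.987 in edgeR. The 19 dissociation stress genes summed to 64424 to 72531 CPM in WT and 66645 to 70610 CPM in KO. Of these 4 were higher and 8 lower at an unadjusted p under 0.05 in edgeR, and 0 were called. The 13 neutrophil markers summed to 633 to 867 CPM in WT and 773 to 788 CPM in KO. Of the 6 tested, 4 were higher and 0 lower at that threshold, and 0 were called. The part of these cells and of handling in the microglial values was not tested.

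In splenic macrophages 0 of 34 members were called in edgeR, while 0.747% of all 17808 genes were. At an unadjusted p under 0.05 there were 3 lower (5.19% of all genes) and 2 higher (6.48%). Entirely lower KO values were found in 2 members, Bst2 and Oas1a (11.9%), and entirely higher ones in 1 (8.02%). The median log2 fold change was -0.061, against -0.0029 over all genes, and it became 0.11 without WT replicate 3 and -0.23 without WT replicate 2. Those WT libraries stood at the 2 ends of their group: all 34 members were below the WT mean in replicate 2 and 31 of 34 were above it in replicate 3.

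The members with the smallest unadjusted p in the spleen went in both directions. Bst2 was at 127, 88.5 and 109 CPM in the WT libraries and 74.9, 72.8 and 81.9 CPM in the KO libraries, all KO values lower, with a log2 fold change of -0.45 ± 0.14 (SE, adjusted p = 0.257). Ifi27l2a was at 113, 78.5 and 112 CPM in the WT libraries and 50.3, 41.5 and 85.8 CPM in the KO libraries, with an overlap and a log2 fold change of -0.74 ± 0.26 (SE). Oas3 was at 13.4, 10.3 and 18.1 CPM in the WT libraries and 18.8, 20.2 and 31.0 CPM in the KO libraries, all KO values higher, with a log2 fold change of 0.77 ± 0.27 (SE, adjusted p = 0.330). Isg15 was at 78.5, 49.6 and 87.0 CPM in the WT libraries and 79.1, 174 and 126 CPM in the KO libraries, with an overlap and a log2 fold change of 0.87 ± 0.32 (SE). B cell markers summed to 1402 to 2110 CPM in WT and 88.0 to 138 CPM in KO splenic libraries, with 14 of 14 called lower. Neutrophil markers summed to 195 to 254 CPM in WT and 669 to 882 CPM in KO, monocyte markers to 6123 to 6445 CPM in WT and 6675 to 8316 CPM in KO, and dissociation stress genes to 35853 to 42693 CPM in WT and 47420 to 64413 CPM in KO. The 12 plasmacytoid dendritic cell markers other than Bst2 summed to 172 to 228 CPM in WT and 89.4 to 108 CPM in KO. Of that list Ly6d alone was called, and it was lower. With Bst2 included, 4 were lower and 2 higher at an unadjusted p under 0.05 in edgeR. The 11 conventional dendritic cell markers summed to 2980 to 3706 CPM in WT and 2530 to 2921 CPM in KO, with Xcr1 called higher. The part of all these cells and of handling in the splenic values was not tested.

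**Figure D4:**
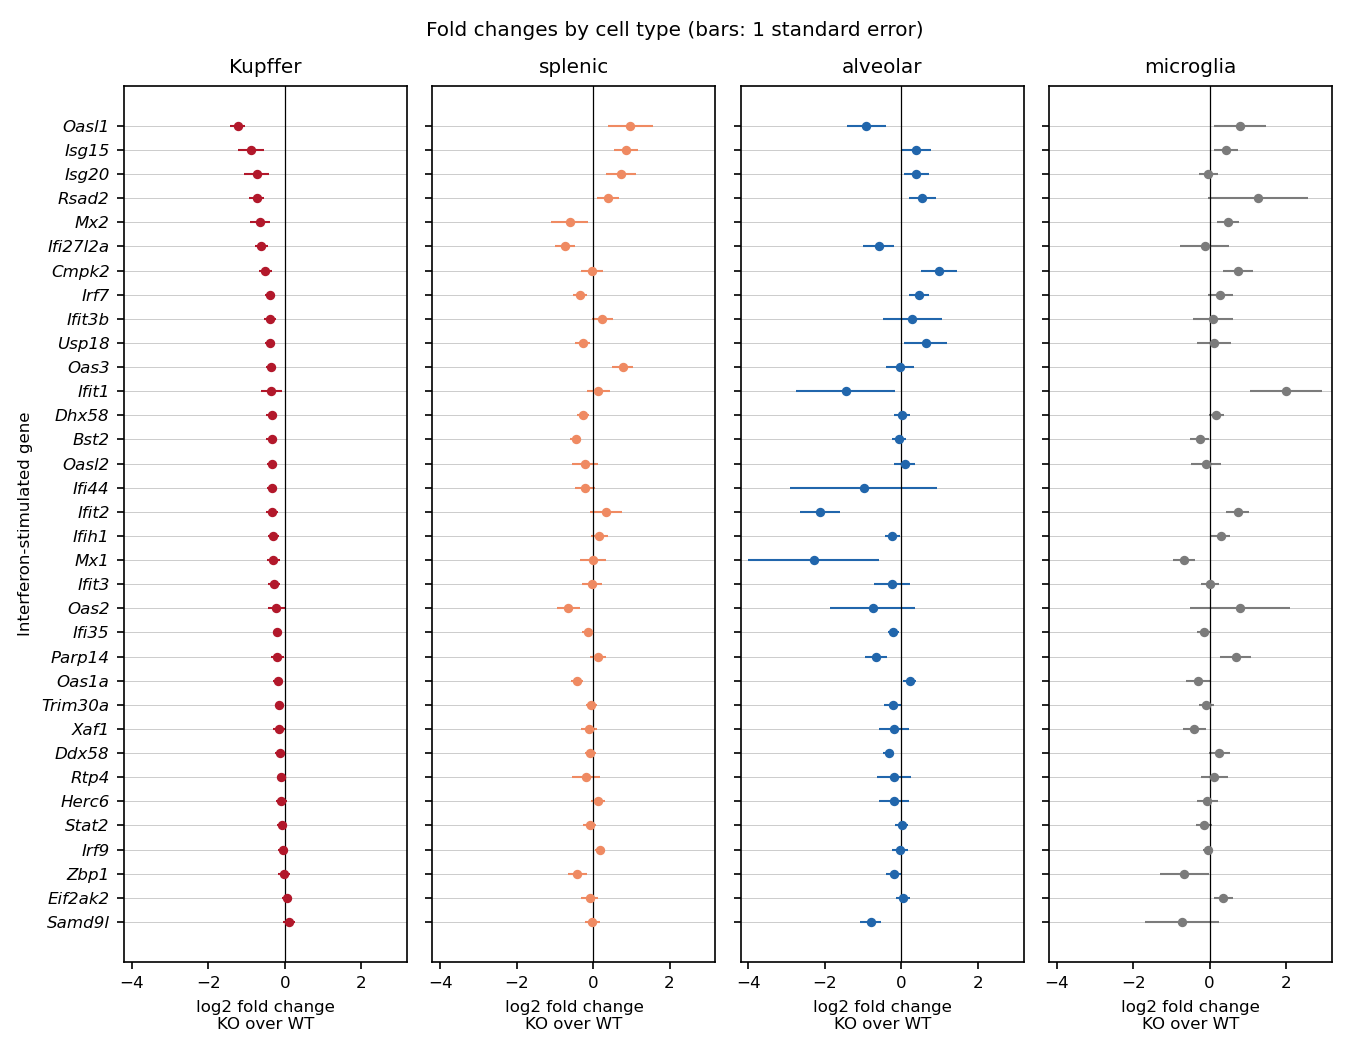
Log2 fold change of KO over WT for each interferon-stimulated gene in the 4 cell types (points the estimate, bars 1 standard error, genes without a point were not tested). Genes are ordered by the Kupffer estimate, which lies below 0 for 32 of 34 genes, while the estimates of the other cell types scatter to both sides of 0.

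Whether the genotype effect differed between cell types was tested with an interaction term over all 24 libraries. It was called for 0 of 34 members in edgeR (0.524% of all 24030 genes), and 6 of 34 had an unadjusted p under 0.05 (11.6% of all genes). Those 6 were Ifit2 (adjusted p = 0.066), Mx2 (adjusted p = 0.118), Cmpk2, Oasl1, Isg15 and Isg20. Ifit2 had the lowest adjusted p, with log2 fold changes of -0.33 ± 0.15 in Kupffer cells, -2.12 ± 0.52 in alveolar macrophages, 0.73 ± 0.31 in microglia and 0.35 ± 0.41 in splenic macrophages (SE). DESeq2 called Ifit2 and Mx2, and edgeR called Ifit2 without the filter on low counts (adjusted p = 0.0238) and with a minimum of 50 counts (adjusted p = 0.0488). Without replicate 3 of every group, edgeR called Mx1 alone (adjusted p = 0.0157). Oas3, whose KO libraries were all lower in Kupffer cells and all higher in splenic macrophages, had an interaction p of 0.469 before adjustment in edgeR. So a difference between Kupffer cells and the other types in the genotype effect on the set is not shown.

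Upstream of the members, receptor and kinase genes were measured in all Kupffer libraries. Of 12 genes for interferon receptors, kinases and STATs, 0 were called in Kupffer cells in edgeR, with 1 higher and 0 lower at an unadjusted p under 0.05. Ifnar1 was at 201, 159 and 169 CPM in the WT libraries and 148, 199 and 181 CPM in the KO libraries, and Ifnar2 at 193, 228 and 227 CPM in the WT libraries and 223, 211 and 249 CPM in the KO libraries. Both overlapped between genotypes. The 21 interferon ligand genes were hardly expressed, 3 of them were tested in Kupffer cells, and 0 were called. Among them Ifnb1, the first type I interferon made on sensing, was at 1.06, 0.857 and 4.62 CPM in the WT libraries and 0.227, 0.284 and 0.568 CPM in the KO libraries. All KO values were lower, but WT replicate 3 was over 4 times the other WT libraries, and the log2 fold change of -2.56 ± 0.84 (SE, adjusted p = 0.581 in edgeR) became -1.36 without it.

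The other interferon pathway lists had no called gene in Kupffer cells in edgeR either. Over all genes in Kupffer cells, 2.84% were higher and 4.1% lower at an unadjusted p under 0.05 in edgeR. Of 8 interferon regulatory factors beside the members, 1 was higher and 1 lower at that threshold. Irf8, a lineage factor of macrophages and dendritic cells, was at 479.7, 484 and 584 CPM in the WT libraries and 781, 997 and 666 CPM in the KO libraries, all KO values higher, with a log2 fold change of 0.67 ± 0.15 (SE, adjusted p = 0.246). Of 17 nucleic acid sensors and adaptors tested, 5 were higher and 2 lower at that threshold, and Ikbke, a kinase that activates Irf3 and Irf7, was at 93.9, 93.9 and 84.3 CPM in the WT libraries and 65.6, 60.7 and 57.7 CPM in the KO libraries, all KO values lower. Of 9 negative regulators, 1 was higher and 0 lower. DESeq2 called 475 of all 22138 genes in Kupffer cells. Its calls included Irf8 (higher, adjusted p = 0.00906), Ikbke (lower, adjusted p = 0.00354) and Ticam1 (higher, adjusted p = 0.00656). Ticam1 (TRIF), the adaptor of Tlr3 and Tlr4, was at 7.05, 6.62 and 5.06 CPM in the WT libraries and 13.6, 10.6 and 12.6 CPM in the KO libraries, all KO values higher, with a log2 fold change of 0.999 ± 0.24 (SE, adjusted p = 0.275 in edgeR). The single genes of these upstream lists are named after their values were seen. Conventional dendritic cell markers went both ways in the same Kupffer libraries, and the part of those cells in the Irf8 values was not tested.

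A wider list held 90 other interferon-inducible genes. In Kupffer cells 10 of the 90 were lower (4.1% of all genes) and 2 higher (2.84%) at an unadjusted p under 0.05, 0 were called in edgeR, and the median log2 fold change was -0.028. The 475 DESeq2 calls among 22138 genes in Kupffer cells included Ifitm3 (adjusted p = 0.0461), Ms4a4c (adjusted p = 0.00169) and Parp11 (adjusted p = 0.0044). All 3 were lower, and they are named after their values were seen. The summed level of the 90 genes in Kupffer cells was 16329 to 17595 CPM in WT and 16249 to 16541 CPM in KO. These groups overlapped. In alveolar macrophages 89 of the 90 were tested, with 0 called. There 21 were lower (6.74% of all genes) and 4 higher (5.77%) at an unadjusted p under 0.05 in edgeR. The alveolar sum was 5922 to 6520 CPM in WT and 5621 to 5646 CPM in KO, without overlap. In microglia 3 were higher (2.3%) and 2 lower (2.14%) at that threshold, and the sums overlapped. Among the 22 genes responsive to interferon-gamma, 5 were higher (2.84% of all genes) and 0 lower (4.1%) at that threshold in Kupffer cells, with a median of 0.17, and their summed level was 14305 to 17494 CPM in WT and 19093 to 23109 CPM in KO. The difference between these lists and the 34 members was not tested. The part of dendritic cells in the values of the genes responsive to interferon-gamma was not tested either.

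In splenic macrophages 88 of the 90 were tested, and edgeR called 1 higher and 3 lower, where 0.747% of all 17808 genes were called. At an unadjusted p under 0.05 there were 12 lower (5.19% of all genes) and 6 higher (6.48%). The splenic sum of the list was 10969 to 12248 CPM in WT and 10018 to 10430 CPM in KO, without overlap. Ifitm3, which blocks fusion of enveloped viruses in endosomes, was at 206, 183 and 209.9 CPM in the WT libraries and 93.3, 90.7 and 101 CPM in the KO libraries. It fell in KO, with a log2 fold change of -1.03 ± 0.10 (SE, adjusted p = 0.0106). Ly6a (Sca-1), a surface marker of stem cells and activated lymphocytes, was at 20.8, 11.3 and 15.4 CPM in the WT libraries and 1.94, 2.75 and 2.39 CPM in the KO libraries and fell as well, with a log2 fold change of -2.69 ± 0.29 (SE, adjusted p = 0.0120). Ms4a4c, a tetraspan membrane protein, was at 19.5, 11.2 and 15.6 CPM in the WT libraries and 3.73, 3.04 and 1.90 CPM in the KO libraries and fell, with a log2 fold change of -2.36 ± 0.34 (SE, adjusted p = 0.0356). Ifi205, a DNA-binding protein of the p200 family, was at 7.48, 4.91 and 7.70 CPM in the WT libraries and 17.3, 16.5 and 16.7 CPM in the KO libraries and rose, with a log2 fold change of 1.37 ± 0.22 (SE, adjusted p = 0.0494). In all 4 genes the KO and WT libraries did not overlap. B cell markers fell in the same splenic libraries, and the part of B cells in the values of these genes was not tested. The interaction with cell type had an adjusted p of 0.599 for Ifitm3 and 0.054 for Ms4a4c in edgeR. The edgeR fit of all 24 libraries did not call Ifitm3 (adjusted p = 0.153), Ms4a4c (adjusted p = 0.197) or Ifi205 (adjusted p = 0.139) in splenic macrophages. The calls of Ifi205 and Ms4a4c were lost in edgeR without any 1 of the 6 libraries, with adjusted p up to 0.160 and 0.139. The call of Ifitm3 was lost without KO replicate 1, KO replicate 2 or WT replicate 2 (adjusted p up to 0.0590), and that of Ly6a without any 1 of the KO replicates (adjusted p up to 0.0731).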

How the data were processed

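Bulk RNA-seq gene tables of 24 libraries were used. Per the labels' protocols, RNA of sorted macrophages was isolated (NucleoSpin RNA XS), amplified and made into libraries (SMARTer Ultra Low) and read on a NovaSeq X Plus. The submitters' processing notes name mm10, DRAGEN, STAR, Subread, featureCounts and Salmon, without saying which tool made which value. The authors deposited whole-number counts, CPM and TPM for each gene. For 4 splenic TPM columns the deposited values exceed the TPM total because of repeated rows, and these were treated as a score per gene. Of 55774 rows, repeats were dropped, which left 55487 genes.

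Every sample was grouped by its own labels. KO was compared with WT in the 6 libraries of a cell type by edgeR 4.0.16 in R 4.3.3 (quasi-likelihood, two-sided), with TMM scaling, filterByExpr at a minimum count of 10 and Benjamini-Hochberg adjustment over all genes tested. The 12 WT libraries and the interaction over 24 libraries were tested the same way. The contrasts of the upper and of the lower pair of WT cell types were added after seeing the data. Members and gene lists were chosen with earlier results of these data known. Named genes were all members in Kupffer cells, the members with the smallest unadjusted p elsewhere, the highest members per WT cell type, and called genes of the pathway lists. Marker lists other than those named gave no values used here. Alternatives were DESeq2 1.42.0, other scalings, filters, a replicate block and leaving out libraries. The Kupffer test was checked on simulated data. The values of 1 gene of the pathway lists are not reported here.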

Additional observations from a re-analysis of the deposited data

Results flagged for a closer look

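Ly6a, a gene of the wider interferon-inducible list, had a genotype effect that differed between cell types: the interaction over 24 libraries had an adjusted p of 0.00682 in edgeR. Splenic libraries were at 20.8, 11.3 and 15.4 CPM in WT and 1.94, 2.75 and 2.39 CPM in KO. Kupffer libraries were at 126, 141 and 145 CPM in WT and 153, 118 and 56.8 CPM in KO, which overlapped, as did the genotypes in microglia. In alveolar macrophages the values were 6.66, 10.1 and 4.29 CPM in WT and 13.2, 10.01 and 10.8 CPM in KO, also with an overlap. The part of B cells, whose markers fell in splenic KO libraries, in the Ly6a values was not tested.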

How the results depend on the processing

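The number of called members, 0 in each cell type, was the same in microglia and splenic macrophages under every alternative run. In Kupffer cells it was 2 with DESeq2 (475 of all 22138 genes) and 1 without the filter on low counts (76 of all 33642). In alveolar macrophages it was 1 with DESeq2 (1034 of all 20077) and 2 in the fit of all 24 libraries (297 of all 24030). With the replicate number as a block (replicate block) the count was 0 in all 4 cell types and for the interaction, and 34 for the difference between WT cell types. The replicate block ended the splenic calls of Ifitm3 (adjusted p = 0.082), Ly6a (0.107), Ms4a4c (0.122) and Ifi205 (0.155). Libraries with the same number did not deviate together, with correlations between -0.0496 and 0.0408, so the numbers were not taken to pair the samples. The interaction count was 2 with DESeq2, 1 without the filter, 1 with a minimum of 50 counts, and 0 to 1 when a replicate number was left out. The alveolar median ranged from -0.26 to -0.043 over single libraries left out. The cause of these changes was not tested. In WT, the count lower in Kupffer than splenic cells was 0 to 1, and that lower in alveolar macrophages than microglia 6 to 8, when a replicate number was left out. Left-out libraries turned the Kupffer log2 fold change of Irf9 (-0.14 to 0.022), Zbp1 (-0.12 to 0.11), Xaf1 (-0.24 to 0.00073), Eif2ak2 (-0.034 to 0.15) and Samd9l (-0.032 to 0.23). Precision is limited by the 3 libraries per group.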
